A study of Mus musculus with 4 samples.

Results

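The effect of matrix stiffness that control and Srf-knockdown neural progenitor cells (NPCs) had in common was examined as the ratio of expression on a 12 kPa matrix to that on a 0.5 kPa matrix, taken within each population. Genes were included when their symbol was listed once and their FPKM, the number of sequenced fragments normalized for transcript length and library size, was above 2 in all 4 libraries. Among 10489 such genes, 5474 had a ratio on the same side of 1 in both populations, and these were ranked by the smaller of their 2 absolute log2 ratios. These were 52.2% of the genes tested: 2896 (27.6%) were higher and 2578 (24.6%) lower at 12 kPa, and 5014 genes (47.8%) went opposite ways. The largest smaller ratio belonged to Ptx3, a secreted pentraxin of the extracellular matrix and innate immunity, which was more than doubled at 12 kPa in both populations. Among genes lower on the 12 kPa matrix were Egr1, Egr3 and Fos, early response genes, and Dusp6 and Spry4, feedback inhibitors of growth factor signalling.

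All 4 libraries were made from N31 NPCs, a mouse line differentiated in vitro from iPSCs that descend from EB5 embryonic stem cells and carry Dox-inducible reprogramming factors. The cells were kept in NPC medium lacking EGF and bFGF on matrices coated with type I collagen, whose stiffness was 0.5 kPa or 12 kPa. The control population was compared with the same line after retroviral introduction of an shSrf-expressing gene and puromycin selection (shSrf#1), here Srf-knockdown NPCs. Whether control cells received an empty vector was not stated, and both populations come from 1 line. Each of the 4 conditions was 1 library, so the 2 populations served as the only pair of measurements of stiffness, and neither population had a replicate of its own.

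Cells sense the stiffness of their surroundings through integrins and the actomyosin cytoskeleton. Tension on stiff matrices is known to move the coactivators Yap and Taz into the nucleus, and actin polymerisation releases Mkl1 to work with the transcription factor Srf. Srf also has partners of the ternary complex factor (TCF) family, which are phosphorylated by Erk and drive Egr1, Fos and other early genes through the CArG box, the Srf binding sequence. Erk signalling induces its own inhibitors, among them the Dusp phosphatases and the Sprouty proteins.

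The libraries were estimated to hold 24100000 (control NPCs at 12 kPa) to 62300000 reads (Srf-knockdown NPCs at 12 kPa). Srf was measured at 34.4 and 35.6 FPKM in the controls on the 0.5 and 12 kPa matrix and at 16.2 and 17.4 FPKM in the knockdown cells. The population term of the limma fit gave a log2 difference of -1.06 ± 0.0706 (SE, adjusted p = 0.00247, a threshold of 0.05 that 48.2% of genes passed), in the direction of the label. Of 14 neural progenitor markers, 7 were above 2 FPKM in every library, and Sox1, Hes5 and Olig2 were under 0.1 FPKM in all of them. Of 10 mesenchymal markers 8 were above 2 FPKM in every library, and the 10 summed to 2543 to 2776 FPKM. Most of that sum was Col3a1, at 1584 to 1908 FPKM, and the 9 others summed to 812 to 986 FPKM. None of 5 endothelial and none of 6 pluripotency markers were above 2 FPKM in every library. Pou5f1 was at 2.03 and 2.26 FPKM in the knockdown cells and under 2 FPKM in the controls.

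At the fold threshold of 1.1 in both populations, 535 genes were higher (5.1% of the genes tested) and 340 were lower (3.24%) on the 12 kPa matrix. Together these 875 genes made up 8.34%, and 630 genes (6.01%) passed 1.1-fold in opposite directions. At 1.5-fold, 8 genes (0.0763%) went the same way and 9 (0.0858%) opposite ways. Just inside the 1.1-fold limit, a log2 ratio of 0.1375, stood Arhgap27 with a smaller ratio of 0.1378 and Zfp36l2 with -0.1376. Just outside it on the higher side stood Eif2ak3 with 0.1374. The ratios of the 2 populations had a Pearson correlation of 0.07 across the 10489 genes, which share the libraries and are not independent.

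Both 12 kPa libraries exceeded both 0.5 kPa libraries for 663 genes (6.32%), and both lay below for 582 genes (5.55%). In limma with a population term, no gene passed an adjusted p of 0.05, and the lowest adjusted p was 0.768. An unadjusted p under 0.05 was reached by 651 genes (6.21%), of which 393 (3.75%) were higher and 258 (2.46%) were lower. None of the differences given below therefore passed the test across all genes, and the genes are described by their values.

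**Figure D1:**
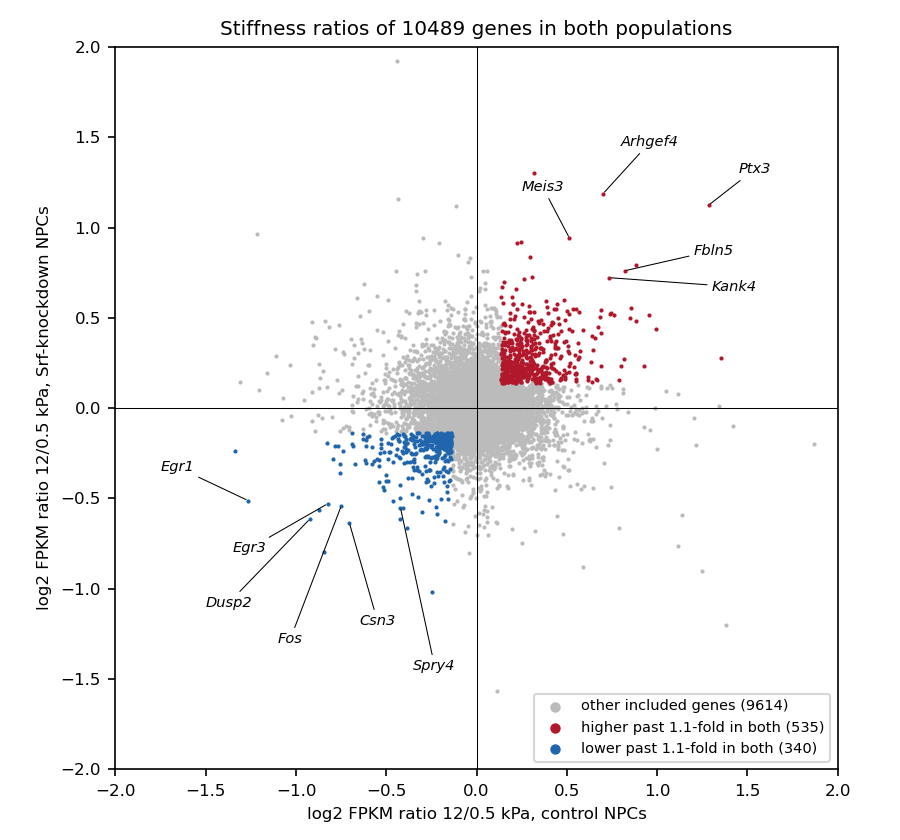
Log2 ratio of FPKM at 12 kPa to FPKM at 0.5 kPa for each of 10489 genes, with control NPCs on the x axis and Srf-knockdown NPCs on the y axis. Red points are the 535 genes past 1.1-fold higher in both and blue points the 340 past 1.1-fold lower in both; Ptx3, at the upper right, has log2 ratios of 1.29 and 1.12, and Egr1, Egr3, Dusp2 and Fos lie at the lower left.

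To show the Srf binding sequence where it occurs in these genes, the upstream bases of 3 genes past 1.1-fold in both populations are given, 5′ to 3′ from RefSeq (GRCm38.p6), each ending at the base before the first base of the annotated gene. Capitals mark each CArG box, searched on both strands. Dusp5 (chr19:53528975-53529144, plus strand) and Zfp36 (chr7:28379229-28379398, minus strand) were lower on the 12 kPa matrix and Myl9 (chr2:156775294-156775407, plus strand) was higher. They were chosen after their values were seen.

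Dusp5: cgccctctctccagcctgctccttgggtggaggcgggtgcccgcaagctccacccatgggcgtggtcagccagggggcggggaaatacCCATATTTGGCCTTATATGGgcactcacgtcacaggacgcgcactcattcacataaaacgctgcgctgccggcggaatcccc
Zfp36: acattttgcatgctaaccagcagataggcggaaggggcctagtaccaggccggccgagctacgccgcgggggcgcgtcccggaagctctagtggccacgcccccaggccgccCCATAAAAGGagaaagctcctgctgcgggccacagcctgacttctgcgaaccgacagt
Myl9: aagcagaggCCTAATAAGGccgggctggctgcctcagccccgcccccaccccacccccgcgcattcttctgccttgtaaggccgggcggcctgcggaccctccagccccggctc

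Dusp5, an Erk phosphatase, holds 2 adjoining boxes, the first starting at -82 and the second at -72 relative to the transcript start that RefSeq promoters were taken from. The box of Zfp36, which encodes an mRNA-destabilising protein, starts at -58, and that of Myl9, the regulatory light chain of smooth muscle myosin, at -161. FPKM of Dusp5 was 15.6 at 0.5 kPa and 13.1 at 12 kPa in the controls and 18.9 and 15.6 in the knockdown cells. FPKM of Zfp36 was 24.0 and 18.7 in the controls and 44.6 and 39.8 in the knockdown cells. Myl9 differed most between the populations, at 346 and 382 FPKM in the controls and 25.1 and 33.7 FPKM in the knockdown cells. In windows from 250 bases upstream to 50 downstream of the start, 1.51% of 8257 included genes with a RefSeq promoter held a CArG box. Among the genes past 1.1-fold, 12 of 417 higher genes (2.88%) and 8 of 256 lower genes (3.12%) held one. The sequence GGAATG, the core of Tead sites, was in 13.6% of all windows, 17.5% of those of higher genes and 12.9% of those of lower genes. The Ets core CCGGAA was in 34.3%, 25.7% and 25.4%, respectively. The AP-1 site TGANTCA was in 5.56%, 5.04% and 6.64%, the cAMP response element TGACGTCA in 3.83%, 4.32% and 2.73%, and the E-box CACGTG in 12.1%, 9.83% and 12.5%. In the stretches shown, 0 matches to these other motifs overlapped a CArG box. The windows of the 3 genes shown are among those counted, and a match describes the sequence only.

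Ptx3 and Fbln5 were among the genes with the largest ratios upwards. Ptx3 (GRCm38 chromosome 3, 66219887 to 66225806) was measured at 8.95 FPKM on the 0.5 kPa matrix and 21.8 FPKM on the 12 kPa matrix in the controls, and at 7.98 and 17.4 FPKM in the knockdown cells. Both 12 kPa libraries were above both 0.5 kPa libraries, with a mean log2 ratio of 1.205 ± 0.114 (SD, n = 2 populations), and limma gave an adjusted p of 0.768. Fbln5 (chromosome 12, 101746565 to 101819119), a fibulin required for elastic fibre assembly, was at 10.5 and 18.5 FPKM in the controls and at 8.52 and 14.4 FPKM in the knockdown cells. Its groups also did not overlap, and its log2 ratios of 0.82 and 0.76 were close to each other.

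Sulf1, an extracellular sulfatase that edits heparan sulfate, was at 22.1 and 32.1 FPKM in the controls and at 11.5 and 16.9 FPKM in the knockdown cells. Col8a2, a short-chain collagen, was at 43.5 and 72.9 FPKM in the controls and at 20.7 and 29.9 FPKM in the knockdown cells. For both genes the groups overlapped because the Srf-knockdown level at 12 kPa was under the control level at 0.5 kPa, while the log2 ratios lay between 0.53 and 0.75. Kank4, a member of the KN motif and ankyrin repeat family that links adhesions to microtubules, behaved likewise at 7.67 and 12.8 FPKM in the controls and at 2.18 and 3.59 FPKM in the knockdown cells.

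Arhgef4, a guanine nucleotide exchange factor, was at 2.97 and 4.83 FPKM in the controls and at 4.72 and 10.8 FPKM in the knockdown cells. Its log2 ratios of 0.70 and 1.19 differed more than those of Fbln5, so that the SD over the populations was 0.344. Slc2a3, a neuronal glucose transporter, was at 4.29 and 6.36 FPKM in the controls and at 3.96 and 5.72 FPKM in the knockdown cells, without overlap. Hdac11, the class IV histone deacetylase, was at 5.66 and 9.13 FPKM in the controls and at 7.96 and 11.6 FPKM in the knockdown cells, also without overlap. The rest of the 15 genes with the largest ratios upwards were Gm5239, annotated as a pseudogene whose reads may be shared with a parent gene, Zfp276, Arrdc2, Ank2, Zfp324, Meis3 and Sept1. Sept1 was the thinnest of these 15 where reads could be estimated, with about 94.5 reads in its lowest library.

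The genes with the largest ratios downwards were led by 6720489N17Rik and Csn3, which encodes kappa-casein. 6720489N17Rik was at 3.68 and 2.05 FPKM in the controls and at 4.16 and 2.40 FPKM in the knockdown cells. Its levels at 12 kPa were close to the minimum of 2, and its reads could not be estimated. Csn3 was at 5.95 and 3.65 FPKM in the controls and at 30.2 and 19.4 FPKM in the knockdown cells, so that the groups overlapped. Dusp2, a nuclear phosphatase of MAP kinases, was at 24.0 FPKM on the 0.5 kPa matrix and 12.7 FPKM on the 12 kPa matrix in the controls, and at 16.9 and 11.1 FPKM in the knockdown cells. Both 12 kPa libraries lay below both 0.5 kPa libraries. Klf10, a Krüppel-like factor induced by TGF-beta, was at 20.6 and 14.9 FPKM in the controls and at 15.7 and 11.0 FPKM in the knockdown cells. Arntl, the core clock activator Bmal1, was at 20.2 and 15.1 FPKM in the controls and at 19.1 and 13.5 FPKM in the knockdown cells. For both Klf10 and Arntl the groups did not overlap, and the ratios of the populations differed by less than 0.1 on the log2 scale. Orc1, the largest subunit of the origin recognition complex, was at 26.4 and 19.7 FPKM in the controls and at 19.9 and 13.0 FPKM in the knockdown cells. Fam219a, Plvap, Nubpl, Syngr1 and Mbnl3 were also among the 15.

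**Figure D2:**
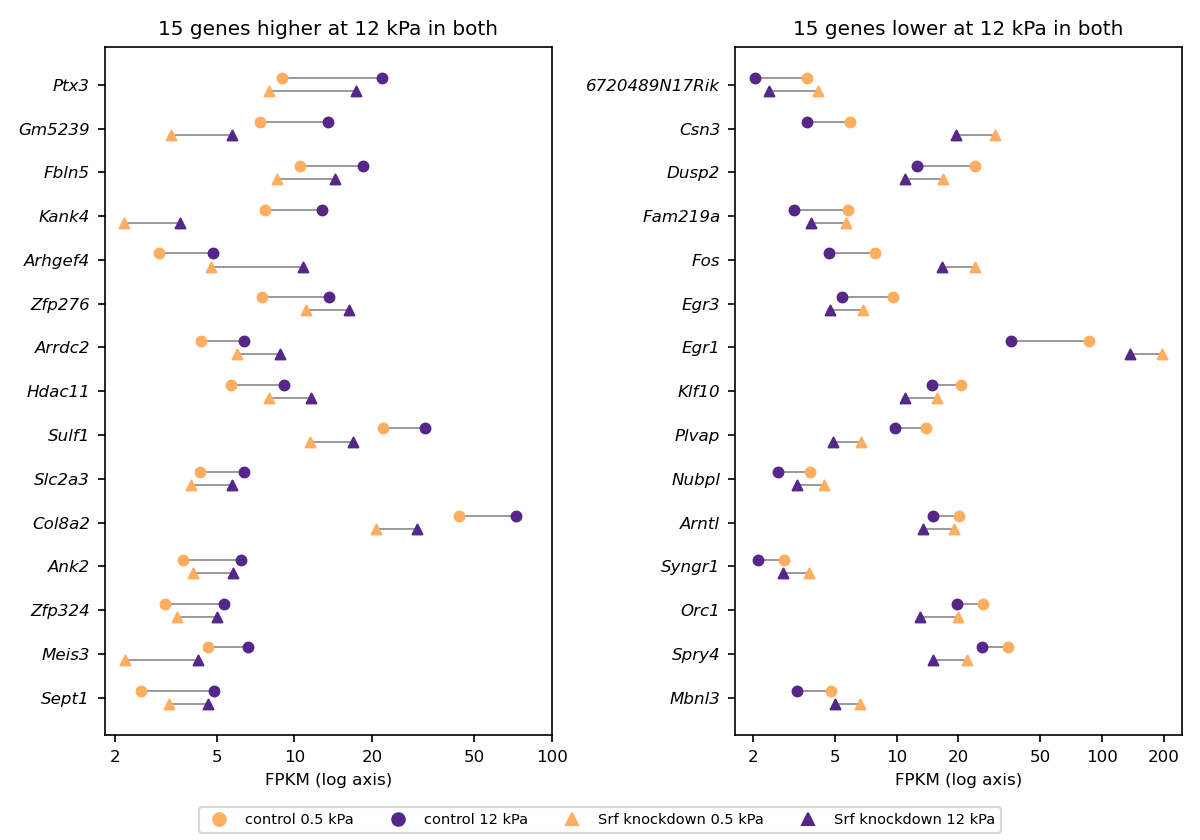
FPKM on a log axis in each of the 4 libraries for the 15 genes with the largest ratios in each direction, with circles for control NPCs, triangles for Srf-knockdown NPCs and a line joining the 0.5 kPa (orange) and 12 kPa (purple) libraries of a population. The lines of a gene point the same way by construction; their lengths are alike for Fbln5, Arrdc2 and Syngr1 and differ for Egr1 and Arhgef4.

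Early genes driven by TCF and Srf were lower on the 12 kPa matrix where they passed 1.1-fold in both populations. Of 16 listed, 11 were included, and 9 of these (81.8%, against 24.6% of all genes) had lower values in both populations. Of the 9, 5 passed 1.1-fold, namely Egr1, Egr3, Fos, Ier2 and Ier3. That is 45.5% of the list against 3.24% of all genes. Egr1 (chromosome 18, 34861207 to 34864956), a zinc finger factor that marks Erk activity, was at 87.0 and 36.2 FPKM in the controls and at 196 and 137 FPKM in the knockdown cells. Both Srf-knockdown libraries were above both control libraries, and the log2 ratio was -1.27 in the controls and -0.51 in the knockdown cells, an SD of 0.533 around a mean of -0.89. Fos, a subunit of AP-1, had the same order of libraries, at 7.85 and 4.67 FPKM in the controls and at 24.1 and 16.6 FPKM in the knockdown cells. Egr3 was at 9.61 and 5.42 FPKM in the controls and at 6.89 and 4.77 FPKM in the knockdown cells, without overlap. Dusp1, Nr4a1, Mcl1 and Btg2 lay within 1.1-fold in both populations, and Klf2 was higher, by 0.05 and 0.20 on the log2 scale. Fosb, under the minimum, had higher values at 12 kPa, at 1.23 and 2.61 FPKM in the controls and at 1.32 and 1.34 FPKM in the knockdown cells. Egr2, also under it in 1 library, was at 4.92 and 3.92 FPKM in the controls and at 1.76 and 3.14 FPKM in the knockdown cells. Arc and Egr4, under it too, likewise went opposite ways. Over the list, the median log2 ratio was -0.08 in controls and -0.05 in the knockdown cells, beside medians of 0.003 and 0.006 over all genes.

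Of 25 listed genes of growth factor feedback, which are inhibitors, targets, ligands and receptors of growth factor signalling, 21 were included. Of these, 12 (57.1%, against 24.6% of all genes) were lower and 4 (19.0%, against 27.6%) were higher in both populations, and 6 (28.6%, against 3.24%) passed 1.1-fold lower. The median log2 ratio was -0.11 in controls and -0.11 in the knockdown cells. Dusp6 (chromosome 10, 99263231 to 99267489), a cytoplasmic Erk phosphatase, was at 104 and 78.7 FPKM in the controls and at 95.9 and 65.2 FPKM in the knockdown cells. Spry4, an inhibitor of Ras-Erk signalling, was at 34.9 and 26.1 FPKM in the controls and at 22.1 and 15.1 FPKM in the knockdown cells, and its paralog Spry2 was at 57.4 and 47.5 FPKM and at 57.3 and 50.4 FPKM. Dusp6 and Spry2 did not overlap between stiffnesses, whereas the control level of Spry4 at 12 kPa exceeded the Srf-knockdown level at 0.5 kPa. The other members past the limit were Dusp5 and, named after their values were seen, Etv4, an Ets factor induced by FGF, and Lif, a cytokine. Etv4 was at 71.0 and 55.4 FPKM in the controls and at 64.9 and 57.3 FPKM in the knockdown cells. Areg, an EGF receptor ligand, was under the minimum in 1 library, at 5.32 and 3.31 FPKM in the controls and at 2.39 and 1.65 FPKM in the knockdown cells. Fgfr2, a receptor for FGF, was under it too and had values in the other direction, at 2.16 and 4.26 FPKM in the controls and at 1.21 and 2.68 FPKM in the knockdown cells.

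Of 10 included genes of the AP-1 family, Fos, Fosl1 and Atf3 (30%, against 3.24% of all genes) were past 1.1-fold lower. Fos is also counted among the early genes above, and Fosb, described there, was under the minimum. Batf3 (10%, against 5.1%) was past 1.1-fold higher, on about 42.1 and 43.0 estimated reads in the controls. Its log2 ratio there was 0.30, with a standard error from read counting of 0.31. Fosl1 was at 11.2 and 7.32 FPKM in the controls and at 14.7 and 11.9 FPKM in the knockdown cells. The median of the family was -0.40 in controls and -0.04 in the knockdown cells. Cyclin D1 (Ccnd1), which carries growth factor signals to the cell cycle, was at 95.6 and 74.6 FPKM in the controls and at 110 and 79.3 FPKM in the knockdown cells, and its 12 kPa libraries were both below its 0.5 kPa libraries. It was the sole gene of 43 included for cell cycle and replication past 1.1-fold in both (2.33%, against 3.24% of all genes past it lower). The medians of that list were 0.03 and -0.01.

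**Figure D3:**
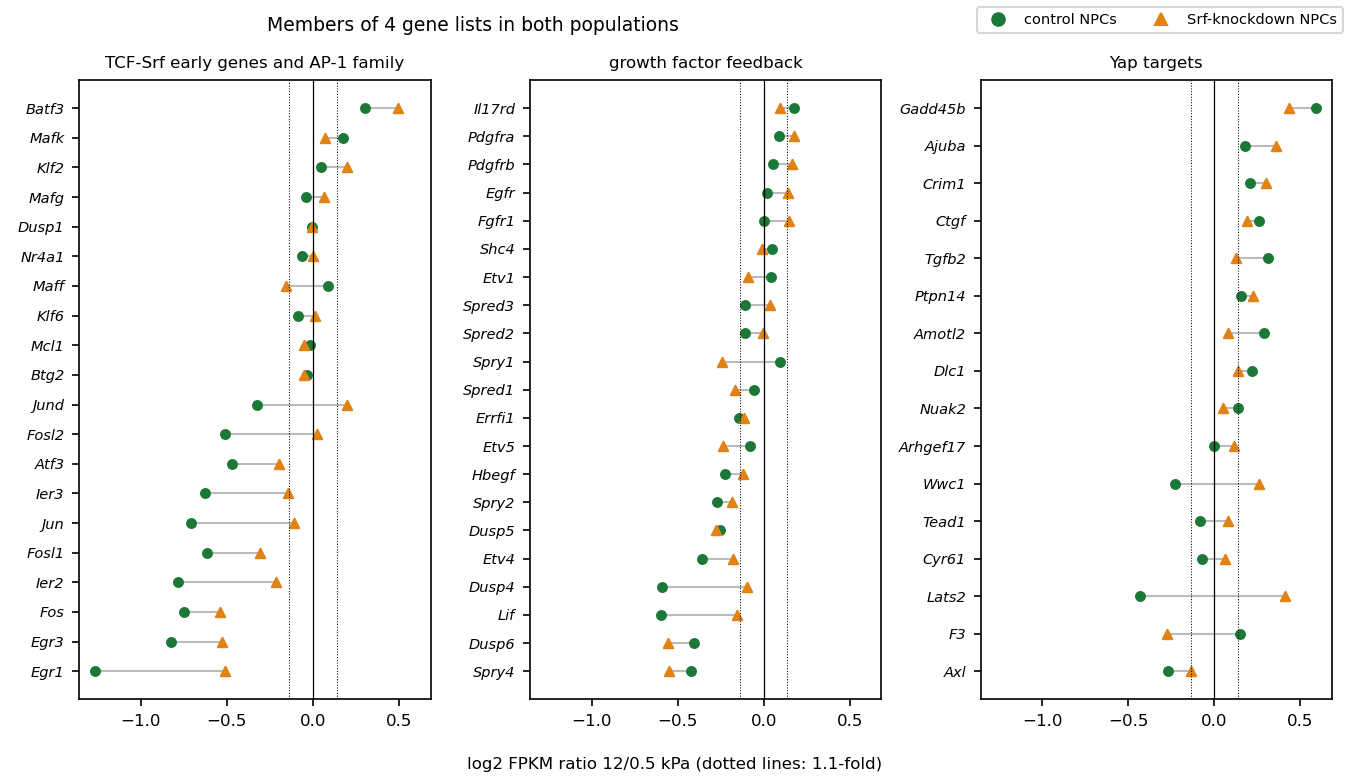
Log2 ratio of FPKM at 12 kPa to FPKM at 0.5 kPa for every included member of 4 gene lists, with green circles for control NPCs, orange triangles for Srf-knockdown NPCs and dotted lines at 1.1-fold. Egr1, Egr3, Fos, Spry4 and Dusp6 lie left of the dotted line in both populations, and Gadd45b, Ajuba, Crim1 and Ctgf lie right of it in both.

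Targets of Yap were higher more often than lower. Of 16 included, 9 (56.25%, against 27.6% of all genes) were higher and 1 (6.25%, against 24.6%) was lower in both populations. Past 1.1-fold higher were 6 (37.5%), against 5.1% of all genes. The median log2 ratio was 0.15 in controls and 0.13 in the knockdown cells, the highest mean of the 2 medians among the 37 lists with at least 5 included genes. Gadd45b, a stress-induced growth arrest protein, was at 9.62 and 14.5 FPKM in the controls and at 27.7 and 37.3 FPKM in the knockdown cells. Ctgf, a matricellular protein and a common readout of Yap, was at 15.5 and 18.5 FPKM in the controls and at 17.1 and 19.6 FPKM in the knockdown cells, without overlap. Ajuba, an adaptor of the Hippo pathway, was at 13.8 and 15.6 FPKM in the controls and at 10.6 and 13.7 FPKM in the knockdown cells. Cyr61, Tead1, Wwc1 and Lats2 had a ratio below 1 in the controls and above 1 in the knockdown cells.

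Targets of Mkl1 and Srf did not share a direction. Of 30 included, 10 (33.3%, against 27.6% of all genes) were higher and 3 (10%, against 24.6%) lower in both populations. Ctgf, Trip6 and Myl9 (10%, against 5.1%) were past 1.1-fold higher. The medians were -0.04 in controls and 0.10 in the knockdown cells. Acta2, smooth muscle actin, was at 321 and 322 FPKM in the controls and at 6.74 and 8.96 FPKM in the knockdown cells. None of 22 focal adhesion and integrin genes passed 1.1-fold the same way in both populations, against 8.34% of all genes.

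Among 34 matrix proteins and crosslinking enzymes, 6 (17.6%, against 5.1% of all genes) were past 1.1-fold higher and 2 (5.88%, against 3.24%) lower. Thbs1, a matricellular protein that activates latent TGF-beta, was at 43.8 and 61.4 FPKM in the controls and at 21.8 and 30.6 FPKM in the knockdown cells, with a log2 ratio of 0.49 in each. Lox, which crosslinks collagen and elastin, was at 13.5 and 19.6 FPKM in the controls and at 75.6 and 92.6 FPKM in the knockdown cells, and its relative Loxl3 was at 12.8 and 16.4 FPKM and at 4.74 and 5.97 FPKM. Lox was several times higher in the knockdown cells, and Loxl3 and Thbs1 were lower there, while all had higher values at 12 kPa. The 2 lower genes were Lama2 and Lamc1, laminin chains, named after their values were seen. Among 17 collagens, Col12a1, a fibril-associated collagen, and Col11a1 were past 1.1-fold higher and Col4a5, of basement membranes, was lower (11.8% and 5.88%). Col12a1 was at 62.5 and 83.7 FPKM in the controls and at 32.8 and 43.5 FPKM in the knockdown cells. The medians of the collagens were -0.13 in controls and 0.09 in the knockdown cells, so that the list as a whole did not go one way.

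Counts for 3 morphogen pathways are to be read against 5.1% of all genes past 1.1-fold higher and 3.24% lower. In the TGF-beta and BMP pathway, 4 of 27 genes (14.8%) were past 1.1-fold higher and none lower. Bmp4, a BMP ligand, was at 17.2 and 24.1 FPKM in the controls and at 15.4 and 19.9 FPKM in the knockdown cells, without overlap. Its inhibitory effector Smad6 was at 2.62 and 3.68 FPKM in the controls and at 6.42 and 8.29 FPKM in the knockdown cells, and the BMP target Id3 was at 248 and 278 FPKM and at 456 and 516 FPKM. The other gene of the 4 was Grem1, at 5.86 and 6.51 FPKM in the controls and at 2.57 and 4.17 FPKM in the knockdown cells. In the Wnt pathway, 5 of 20 genes (25%) were past the limit higher and 2 (10%) lower. Fzd8, a Wnt receptor, was at 7.83 and 10.6 FPKM in the controls and at 9.002 and 11.3 FPKM in the knockdown cells. Tcf7l2, a transcription factor of the pathway, was at 7.39 and 8.79 FPKM in the controls and at 11.9 and 14.4 FPKM in the knockdown cells. The ligand Wnt7b was lower at 12 kPa, at 8.13 and 3.22 FPKM in the controls and at 2.62 and 2.22 FPKM in the knockdown cells, the last close to the minimum of 2. In the Notch pathway, the ligand Jag1 and the receptor Notch1 were past 1.1-fold higher and Lfng, which modifies Notch receptors, was past it lower, of 9 included genes (22.2% and 11.1%).

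Of 11 included neural progenitor genes, 6 (54.5%, against 27.6% of all genes) were higher and 1 (9.09%, against 24.6%) was lower in both populations. Slc1a3, Sox9 and Notch1 (27.3%, against 5.1%) were past 1.1-fold higher. The marker Nes was lower in both, at 51.6 and 36.1 FPKM in the controls and at 16.4 and 15.5 FPKM in the knockdown cells. Prom1 and Msi1, each under the minimum in at least 1 library, also had lower values at 12 kPa in both populations. Slc1a3, a glutamate transporter of radial glia, was at 27.7 and 36.7 FPKM in the controls and at 9.99 and 13.2 FPKM in the knockdown cells. Sox9, a transcription factor of glial progenitors, was at 10.9 and 13.5 FPKM in the controls and at 10.9 and 12.6 FPKM in the knockdown cells. The summed FPKM of the 14 neural progenitor markers was 1848 and 1633 in the controls and 2483 and 2508 in the knockdown cells, most of it Vim, and the 13 others summed to 152 and 152 in the controls and to 103 and 112 in the knockdown cells. Of 14 listed astrocyte genes, 7 were included. Of these, 3 (42.9%, against 27.6% of all genes) were higher and 2 (28.6%, against 24.6%) lower in both populations. The medians of the 7 were 0.02 in controls and 0.09 in the knockdown cells, and the median of their mean ratios was -0.03. Under the minimum, Gfap had lower values at 12 kPa in both populations, and Aqp4, S100b, Slc1a2, Fgfr3 and Slc4a4 had higher ones. The 3 higher genes, Aldh1l1, Apoe and Id3, were past 1.1-fold (42.9%, against 5.1%), and Id3 is also counted in the BMP pathway. Clu was lower within 1.1-fold, at 205 and 194 FPKM in the controls and at 291 and 285 FPKM in the knockdown cells. Aldh1l1, a folate enzyme used as an astrocyte marker, was at 5.68 and 7.09 FPKM in the controls and at 6.77 and 8.96 FPKM in the knockdown cells. The 7 astrocyte markers summed to 428 and 366 FPKM and to 227 and 237 FPKM, most of it Gja1, and the 6 others summed to 30.7 and 32.5 FPKM and to 39.97 and 37.4 FPKM. S100a4, a calcium-binding protein of mesenchymal cells, was at 1177 and 830 FPKM in the controls and at 1249 and 967 FPKM in the knockdown cells. It was the sole mesenchymal gene of 18 past the limit (5.56%, against 3.24% of all genes past it lower). Fewer cells of a type and less RNA per cell cannot be told apart in these bulk libraries, and the part of cell composition was not tested.

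Genes of serine and amino acid metabolism and Atf4 targets were lower in both populations for 20 of 32 included genes (62.5%, against 24.6% of all genes) and higher for 3. Of the 32, 5 (15.6%, against 3.24% of all genes) were past 1.1-fold lower. The median log2 ratio was -0.16 in controls and -0.12 in the knockdown cells. Aldh1l2, a mitochondrial enzyme of folate metabolism, was at 5.79 and 4.52 FPKM in the controls and at 5.06 and 3.88 FPKM in the knockdown cells. Nars, the asparaginyl-tRNA synthetase, was at 97.3 and 86.4 FPKM in the controls and at 89.7 and 78.7 FPKM in the knockdown cells. Both genes had their 12 kPa libraries below their 0.5 kPa libraries. Ribosome biogenesis genes and Myc targets were lower in both populations for 19 of 27 (70.4%, against 24.6% of all genes) and higher for none. None of the 27 passed 1.1-fold in both, against 8.34% of all genes the same way. Myc itself was at 42.3 and 33.7 FPKM in the controls and at 71.6 and 65.8 FPKM in the knockdown cells. Gar1, a protein of H/ACA ribonucleoproteins, was at 123 and 107 FPKM in the controls and at 130 and 119 FPKM in the knockdown cells. The 79 cytosolic ribosomal protein genes had medians of 0.01 and 0.03.

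Interferon-stimulated genes were higher in both populations for 21 of 36 (58.3%, against 27.6% of all genes) and lower for 3. The medians were 0.10 in controls and 0.12 in the knockdown cells, and 4 genes (11.1%, against 5.1%) were past 1.1-fold higher. Stat2, a signal transducer of type I interferon, was at 13.4 and 16.9 FPKM in the controls and at 16.4 and 20.8 FPKM in the knockdown cells. Isg15, a ubiquitin-like protein, was at 35.3 and 39.4 FPKM in the controls and at 97.1 and 108 FPKM in the knockdown cells. For Stat2 both 12 kPa libraries were above both 0.5 kPa libraries, whereas for Isg15 both Srf-knockdown libraries were above both control libraries.

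Of 17 included chemokines and cytokines, 2 (11.8%, against 5.1% of all genes) were past 1.1-fold higher and 3 (17.6%, against 3.24%) lower. Cxcl12, a chemokine that guides progenitor migration, was at 72.8 and 98.4 FPKM in the controls and at 108 and 139 FPKM in the knockdown cells. Ccl7, a monocyte chemoattractant, went the other way at 17.97 and 15.1 FPKM in the controls and at 17.6 and 13.9 FPKM in the knockdown cells. Of 15 included clock genes, Bhlhe40 and Nr1d2 beside Arntl were past the limit lower (20%, against 3.24% of all genes). Per3 was past it higher (6.67%, against 5.1%), with a log2 ratio of 0.139 in the controls, just over the limit. Of 23 genes of the hypoxia response, Pfkfb4, Pdk1 and Vegfa were past the limit lower (13.0%, against 3.24%) and Car9 higher (4.35%, against 5.1%). Pfkfb4, a regulator of glycolysis, was at 9.22 and 6.46 FPKM in the controls and at 9.08 and 7.67 FPKM in the knockdown cells. No gene for cholesterol synthesis (24 included), fatty acid synthesis (14) or lysosomes (27) passed 1.1-fold in both, nor did any of the 12 included histone genes. The share of all genes past 1.1-fold the same way was 8.34%, so few were to be looked for in lists of these sizes.

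Of 10 included genes encoded by the mitochondrial genome, 5 (50%, against 24.6% of all genes) were lower in both populations and none (against 27.6%) was higher. Under the minimum, mt-Atp6 had higher values at 12 kPa, at 2.15 and 3.80 FPKM in the controls and at 1.66 and 1.81 FPKM in the knockdown cells. Also under it, mt-Co2 and mt-Co3 went opposite ways. The medians of the 10 were 0.001 in controls and -0.62 in the knockdown cells. For mt-Co1, mt-Nd1 and mt-Nd2 the log2 ratios were -0.06, -0.02 and -0.02 in the controls, and -0.69, -0.38 and -0.47 in the knockdown cells. Past 1.1-fold in both was mt-Nd3 alone (10%, against 3.24%). Mt-Nd3, a subunit of complex I, was at 14.2 and 11.5 FPKM in the controls and at 4.21 and 2.82 FPKM in the knockdown cells. The 74 included nuclear genes of the respiratory chain had medians of 0.03 and 0.002.

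**Figure D4:**
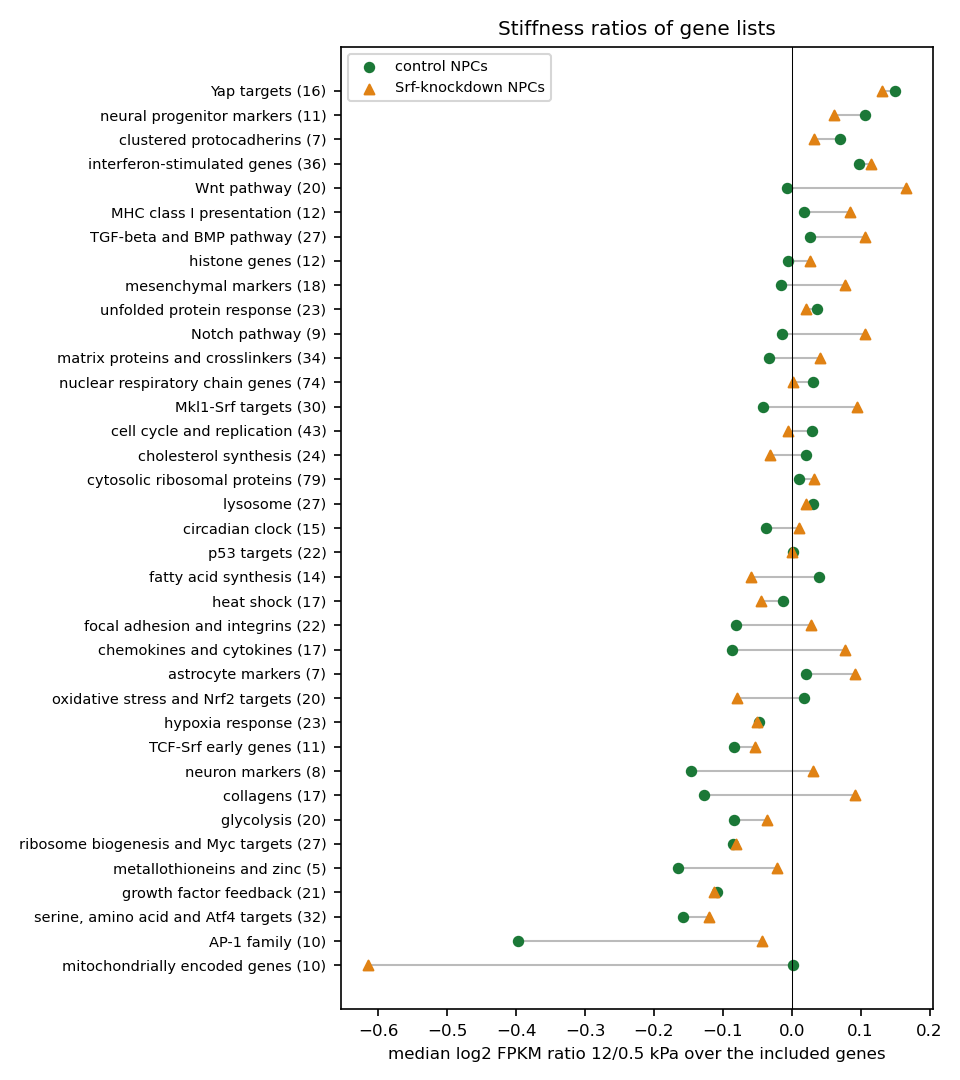
Median log2 ratio of FPKM at 12 kPa to FPKM at 0.5 kPa over the included genes of each of 37 lists (number of included genes in brackets), with green circles for control NPCs and orange triangles for Srf-knockdown NPCs. Both points lie right of 0 for Yap targets and interferon-stimulated genes and left of 0 for growth factor feedback, amino acid and Atf4 targets and ribosome biogenesis; the points lie far apart for mitochondrially encoded genes, AP-1 and collagens.

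The 875 genes past 1.1-fold the same way were expressed at lower levels than the rest. The mean FPKM over the libraries was under 10 for 44.5% of the 535 higher genes and 41.5% of the 340 lower genes, against 25.5% of all included genes. It was under 10 for 40.5% of the genes past 1.1-fold in opposite directions too. Among the 2623 genes of lowest mean FPKM 236 were higher, 140 lower and 249 opposite, and among the 2622 of highest mean FPKM 60 were higher, 50 lower and 76 opposite. The knockdown level was under 0.5 times the control level for 6.54% of the higher genes, 3.53% of the lower genes, 4.29% of the opposite genes and 2.29% of all genes. It was above 2 times the control level for 3.74%, 6.18%, 4.44% and 2.36%, respectively.

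Transcript GC content moved with the ratios in opposite directions in the 2 populations. Its Spearman correlation with the ratio across 9569 genes with a transcript was -0.13 in controls and 0.34 in the knockdown cells. With the genes ordered by GC content into 10 bins, from the lowest to the highest bin, the median log2 ratio went from 0.03 to -0.04 in controls and from -0.06 to 0.09 in the knockdown cells. The median GC content was 52.2% for the higher genes, 48.7% for the lower genes and 50.3% for all. After each ratio was centred on the median of genes of like GC content, the Pearson correlation of the populations was 0.12.

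**Figure D5:**
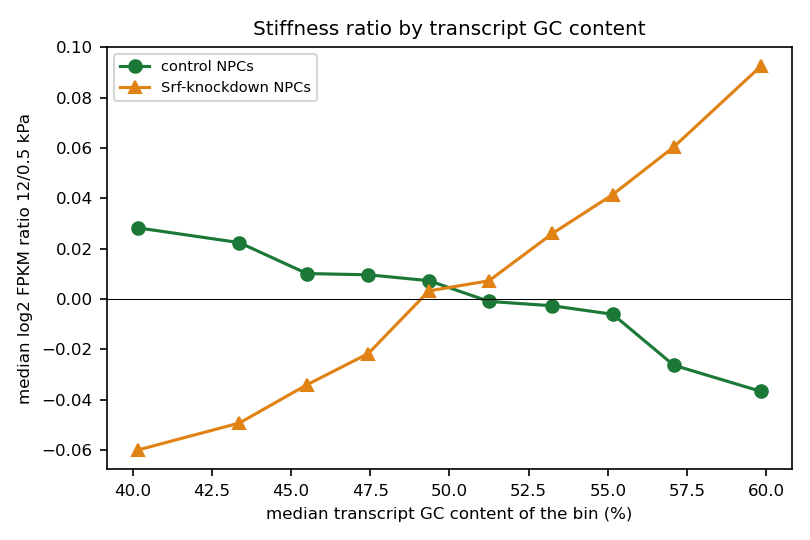
Median log2 ratio of FPKM at 12 kPa to FPKM at 0.5 kPa over 10 bins of genes ordered by transcript GC content (x axis, median GC content of the bin in percent), with green circles for control NPCs and orange triangles for Srf-knockdown NPCs. The line falls from 0.03 to -0.04 in the controls and climbs from -0.06 to 0.09 in the knockdown cells.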

How the data were processed

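Total RNA was sequenced as 4 stranded mRNA libraries. Per the labels, the authors processed the reads with cutadapt 1.9.1, TopHat2 2.1.0, Bowtie2 2.2.8 and Cufflinks 2.2.1 on mm10, keeping a mapping quality of at least 20, and deposited FPKM, which are normalized for length and depth and hide the read number. The strand setting of the counting was not given in the sources used here. Depth was estimated from whole-read steps of low values, 24100000 to 62300000, at which 3 reads on 2000 nucleotides equal 0.0268 to 0.0691 FPKM; this covers counting error only.

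Each file listed 21997 rows; 63 repeated symbols were left out, leaving 21862 genes, of which 10489 had an FPKM above 2 in all libraries. No rescaling and no pseudocount was applied. limma 3.58.1 (R 4.3.3) was fitted on log2 FPKM with terms for population and stiffness, a trended prior and Benjamini-Hochberg adjustment. The population term pairs the libraries of a population, leaving 1 residual degree of freedom, the difference between the populations' ratios. The script was tested on simulated data whose shared changes were larger than those of nearly all genes here, which checks the code only. The smallest p of an exact permutation within these pairs is 0.5, so none is given. Because nothing says that the libraries are separate cultures, p-values measure only the spread between these libraries.

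Named genes are the 15 with the largest smaller ratio in each direction, up to 4 per list by the same measure, and Srf, Acta2, Tagln, Myl9, Cnn1, Gapdh and Actb; others are named as chosen after their values were seen or to complete a short count. The members and the 41 gene lists (1004 genes, 797 included) were chosen with earlier results of these data known, so counts over a list are descriptions. Names, coordinates and promoters come from RefSeq (GRCm38.p6, the assembly of mm10), and GC content and length from GENCODE transcripts matched by symbol. Alternatives were other minimums, a pseudocount, other scalings, other fold thresholds, no population term and either population alone. Python 3.11.15, pandas 2.3.3 and scipy 1.17.1 were used. Some items are not reported here.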

Additional observations from a re-analysis of the deposited data

Results flagged for a closer look

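Tagln, a smooth muscle actin-binding protein, was flagged because its 2 stiffness ratios pointed opposite ways: -0.30 (log2) for controls against 0.94 for the knockdown, which differ by -1.24. FPKM on the 0.5 and 12 kPa matrix was 298 and 242 for controls but 16.9 and 32.6 for the knockdown. Cnn1, smooth muscle calponin, stood out in the same manner, its ratios being -0.32 and 0.73 (difference -1.05). Here FPKM was 95.0 and 76.1 for controls but 0.795 and 1.32 for the knockdown, under the minimum of 2. Neither difference was tested.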

How the results depend on the processing

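With 1 library per condition, the spread rests on the difference between 2 populations, and small ratios of weakly expressed genes lie near the counting error. A threshold of 1.2-fold left 138 higher and 63 lower genes, and 1.5-fold left 5 and 3. In either population alone, 1846 to 1873 genes were past 1.1-fold higher and 1366 to 1768 lower. Over 10 alternatives with a fit, limma called 0 genes in each. Their lowest adjusted p ranged from 0.136 (centring by transcript length, chosen after seeing the data) to 1.00 (no replicate block), and 17 to 1222 genes reached an unadjusted p under 0.05. The main fit has the population as block, and without the block 17 genes did, against 651 with this pairing.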
